A study of Bos taurus with 20 samples.

Results

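A set of 93 genes in the lining of the heifer uterus stood high at estrus and low at the other 4 sampled points of the cycle. They were chosen from 27607 gene IDs by their own values. Counts were divided by the total of each library and expressed as CPM, and the level of a gene on a day was taken as the median CPM of its 4 libraries plus 0.5. A gene was kept where its day 0 level was at least 5 and under 1000, was at least 3 times its level on each of days 5, 10, 14 and 18, and where its day 5 level was under 2 times the larger of those on days 10 and 14. Of 11769 IDs in the day 0 range, 108 had the 3-fold gap, and 15 of these were left out for a higher day 5 level. Since these values chose the genes, the height of the peak is described and not tested.

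The libraries came from endometrial biopsies of virgin Holstein heifers, at least 7 months old and at least 340 kg, which were sexually mature and non-lactating. All animals, in every group, had their cycles synchronized with a GnRH analog, progesterone from a device in the vagina and the prostaglandin F2α analog cloprostenol. They were then drawn at random for a biopsy on day 0 (estrus), 5, 10, 14 or 18, with 4 animals per day and 1 library each. Total counts per library ran from 21234000 to 26644679.

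Estrus is the phase of sexual receptivity around the end of follicle growth, when circulating estrogen is high and progesterone is low. After ovulation a corpus luteum forms and secretes progesterone through the middle of the cycle, and in a cycle without pregnancy it regresses under prostaglandin F2α from the uterus. The endometrium carries receptors for both steroids, and its epithelium, glands and stroma change their transcripts and secretions with them. In this order day 5 is an early, day 10 a middle and day 14 a late luteal point, and day 18 lies close to the return to estrus.

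The count tables identify genes by Ensembl number only, and 0 of the 27607 IDs matched the cattle name table used here. The genes are therefore described as a group and by 4 IDs chosen by a stated rule, without functions. For the same reason the tissue could not be checked against cell type markers. In bulk tissue, fewer cells of a type and less RNA per cell cannot be told apart. CPM values are not divided by gene length, so the levels below compare libraries and not genes.

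The peak ranged from just past the limit to steep. The ratio of the day 0 level to the highest other day ran from 3.002 to 71.1, with a median of 4.19. It was between 3 and 4 in 45 genes, between 4 and 6 in 29, between 6 and 10 in 8 and at least 10 in 11. The gene nearest outside the limit had a ratio of 2.981. For the day 5 condition the nearest values were 1.974 inside and 2.003 outside, and for the day 0 level 5.403 inside and 4.923 outside. The set spanned day 0 levels of 5.403 to 789 CPM, with 34 genes under 20, 34 from 20 to 100 and 25 above. Another 8 IDs met the ratio conditions at a day 0 level of 1000 or more and are not described here.

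Outside estrus most genes of the set fell to a low level without falling silent. The median ratio of the day 0 level to that of another day was 5.24 for day 5, 7.13 for day 10, 6.07 for day 14 and 5.43 for day 18. Day 10 held the lowest level of 51 genes, day 14 of 26, day 5 of 10 and day 18 of 6. The day 10 levels include replicates 1 and 3, which stood apart in the whole data, as described below. Relative to the mean of day 0, the median log2 level of the set was -3.59 and -3.14 in these. It was -2.36 and -2.44 in day 10 replicates 2 and 4, and the lowest day was not recounted without replicates 1 and 3. The second highest level after day 0 lay on day 5 in 36 genes and on day 18 in 36, and on day 14 or 10 in 13 and 8. Without day 18 replicate 1, which is described below, these numbers became 43 for day 5, 26 for day 18, 11 for day 14 and 13 for day 10. The median CPM was under 1 on all 4 of the other days in 9 genes, and 10 or more on all 4 in 22. At least 1 library without a single count was found on day 5 for 3 genes, on day 10 for 9, on day 14 for 8 and on day 18 for 2.

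**Figure D1:**
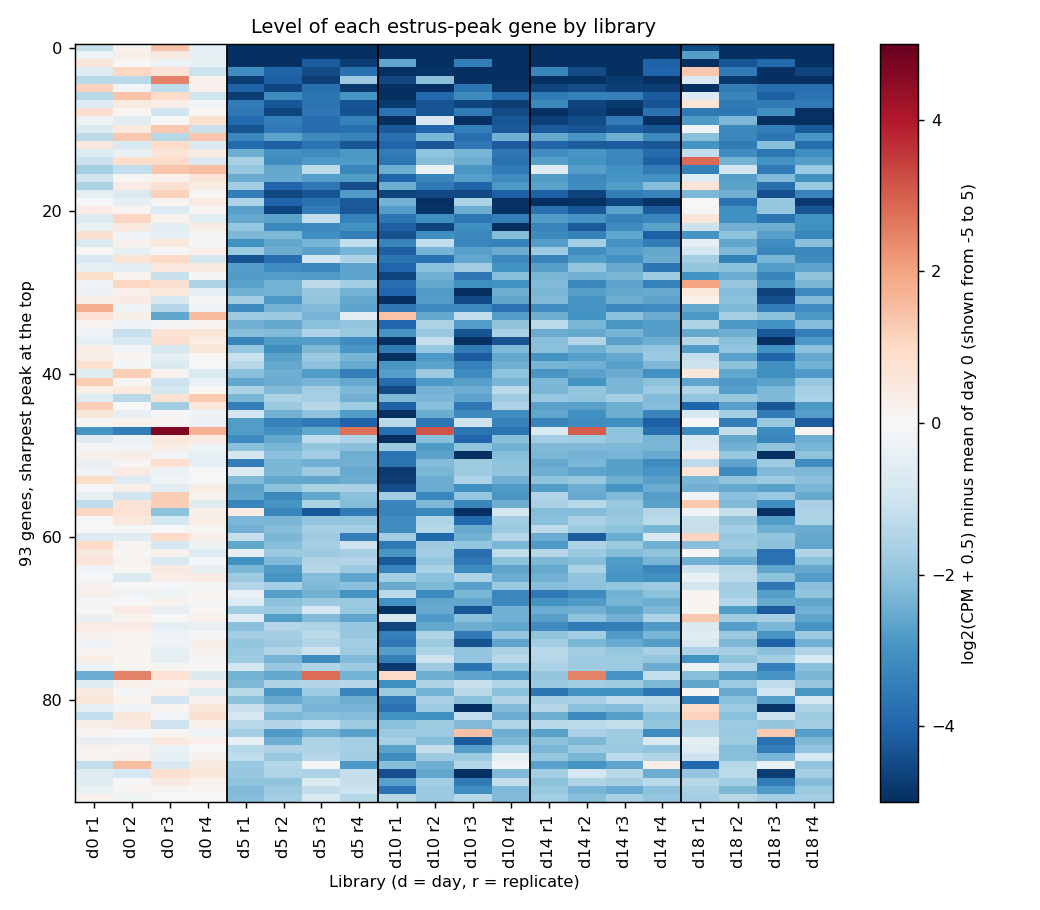
Heat map of the 93 genes (rows, sharpest peak at the top) in the 20 libraries (columns, d = day, r = replicate). Color shows log2(CPM + 0.5) minus the mean of the 4 day 0 libraries, from -5 to 5; the column of day 18 replicate 1 is the palest outside day 0, and a few rows are red in single libraries of other days.

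The 3-fold gap in the medians left the single animals free to overlap, and in part of the set they did. The choice of genes used these same values, so the counts in this paragraph are a description and the shares of tested IDs are given as background only. All 4 day 0 libraries lay above all 16 other libraries in 52 of the 93 genes, while 1.79% of the 16947 tested IDs showed this. With day 18 replicate 1 left out, the number was 80, against 2.93% of tested IDs. By single days, all 4 day 0 libraries lay above all 4 of day 5 in 83 genes (6.47% of tested IDs), of day 10 in 83 (8.53%), of day 14 in 87 (10.8%) and of day 18 in 54 (4.84%). An edgeR quasi-likelihood test with Benjamini-Hochberg adjustment called 61 genes as falling from day 0 to day 5 (4.14% of tested IDs), 80 to day 10 (7.18%), 79 to day 14 (8.43%) and 42 to day 18 (1.75%). The rule had already set the levels of these genes at least 3-fold lower on those days. These calls were therefore favored by the choice of genes and are no evidence for the peak.

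Each library was also left out in turn: the genes were chosen from the other 19 libraries and then read in the one left out. Only 1 side of the ratio is free of the choice in this reading, since a left-out estrus library is set against levels of other days that the choice made low, and any other left-out library against a day 0 level that it made high. The shares of IDs in the range are therefore not a matched comparison. Of the genes chosen without day 0 replicate 1, 2, 3 or 4, 60.0%, 68.4%, 56.0% and 70.1% were at least 3 times the highest other day in the library left out. Of all tested IDs in the same range of day 0 levels, 1.04% to 1.11% were. In a left-out library of day 10 or day 14, 89.8% to 95.5% of the chosen genes lay at least 3-fold below the day 0 level, against 2.31% to 10.2% of the IDs in the range. On day 5 the share was 68.8% in replicate 1, 94.3% in replicate 2, 69.3% in replicate 3 and 80.2% in replicate 4. On day 18 it was 86.0%, 90.1% and 92.0% in replicates 2, 3 and 4, but 35.9% in replicate 1. The shares of IDs in the range were 2.91%, 2.42%, 1.55% and 1.72% in day 5 replicates 1 to 4. In day 18 replicates 1 to 4 they were 2.70%, 2.51%, 9.27% and 3.13%. The shares of the 4 estrus libraries, at 56.0% to 70.1%, were below those of all 8 libraries of days 10 and 14. Day 5 replicates 1 and 3 had shares like those of the estrus libraries. These shares are not on the same scale. A left-out estrus library was set against the highest other day, and any other library against day 0 alone. The lower estrus shares therefore do not show that estrus animals were less alike. Of the 93 genes, 56 were chosen again whichever of the 20 libraries was left out.

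**Figure D2:**
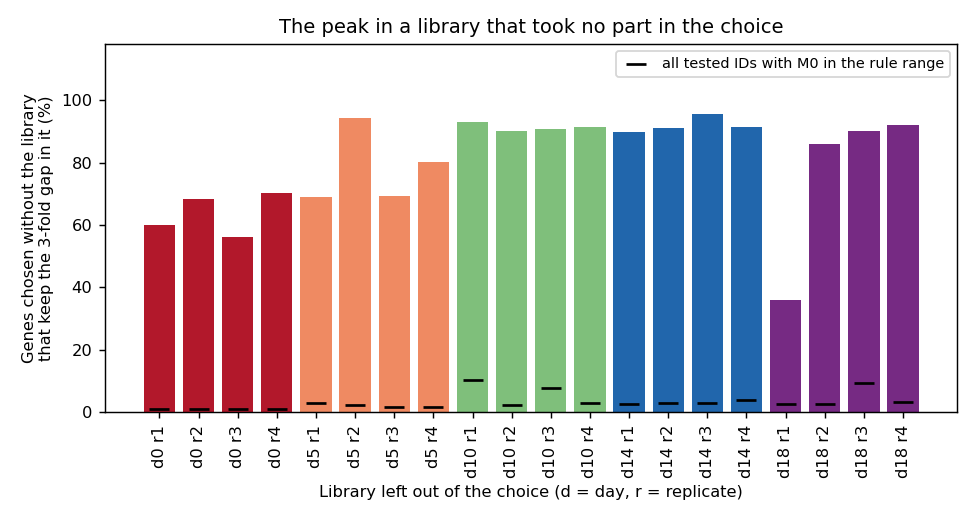
Percent of genes (y axis) that kept the 3-fold gap between day 0 and the other days in a library left out of the choice, for each of the 20 libraries (x axis, d = day, r = replicate). Day 0 libraries were set against the highest other day and all others against day 0 alone, so day 0 bars are not on the same scale as the rest. Black dashes give the same percent for the 11769 tested IDs in the range of day 0 levels; the bar of day 18 replicate 1, at 35.9%, is the lowest.

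The 4 IDs named here were the gene with the largest fitted change from day 14 to day 18, those with the largest ratio of day 0 to day 18 and to day 5, and the one with the highest day 0 level. A gene that came first under several of these was counted once, and the next in order was taken. On day 0 ENSBTAG00000037768 had 123, 304, 725 and 193 CPM in replicates 1 to 4. On day 5 it had 111 counts (4.94 CPM) in replicate 1 and 7, 11 and 5 counts in the others. It had 0 counts in 6 of the 8 libraries of days 10 and 14, with 2 counts in day 10 replicate 3 and 3 in day 14 replicate 2. On day 18 it was at 11.6, 3.77, 2.24 and 0.0451 CPM. The lowest estrus library was therefore above every other library, and within day 18 the animals ranged from 1 count to 282.

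ENSBTAG00000032193 had the same outline with closer estrus values, at 117, 166, 186 and 96.2 CPM on day 0. It had 44 counts in day 5 replicate 1 and 2, 12 and 1 counts in the others. From day 10 to day 14 no library held more than 5 counts. On day 18 replicates 1 to 4 had 478, 65, 35 and 1 counts, or 19.7, 3.06, 1.57 and 0.0451 CPM. In this ID and in ENSBTAG00000037768 the 4 animals of day 18 fell in the same order, with replicate 1 highest and replicate 4 at a single count.

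ENSBTAG00000026812 fell to low values that were uneven between animals. On day 0 it had 119, 79.8, 64.4 and 60.4 CPM in replicates 1 to 4, and on day 5 between 0.890 and 3.91 CPM. On day 10 replicates 1 and 3 had 12.1 and 6.67 CPM, while replicates 2 and 4 had 0 and 6 counts. On day 14 it ranged from 0.463 to 4.30 CPM and on day 18 from 0.632 to 4.76 CPM. Day 18 replicate 1, at 1.32 CPM, was not raised in this gene.

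ENSBTAG00000011810 kept a clear level on every day. Its day 0 values were 864, 909, 395 and 714 CPM, a mean of 721 ± 232 CPM (SD, n = 4). Means were 147 ± 50.8 CPM for day 5, 65.3 ± 47.1 CPM for day 10 and 119 ± 25.8 CPM for day 14 (SD, n = 4). Replicate 1 of day 18 had 825 CPM, inside the estrus range, against 167, 31.8 and 149 CPM in replicates 2, 3 and 4. The groups of day 0 and day 18 thus overlapped through 1 animal.

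**Figure D3:**
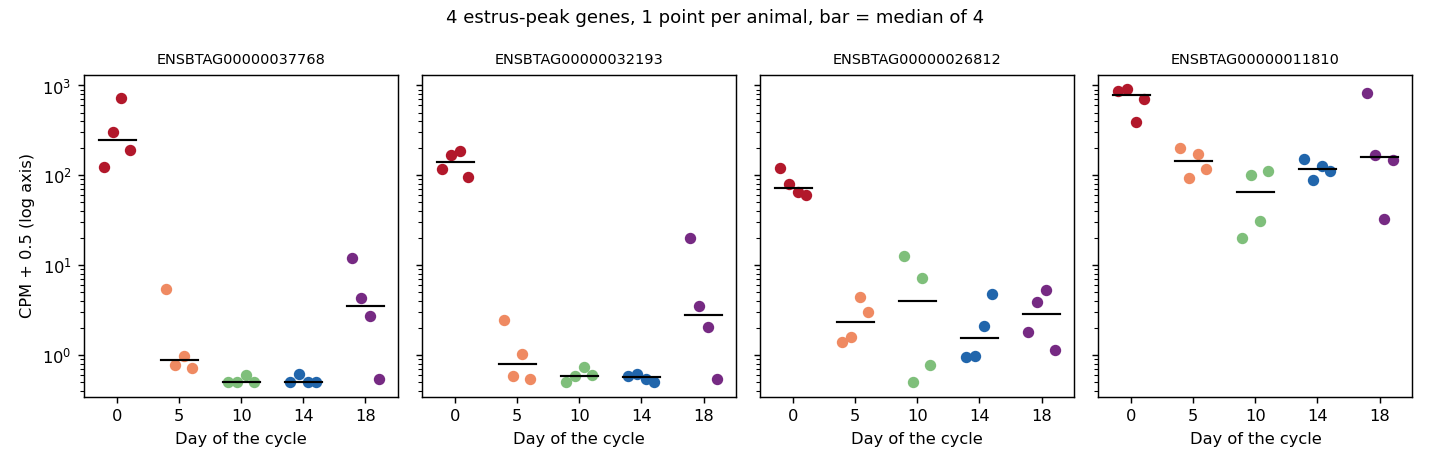
CPM + 0.5 on a log axis (y) against the day of the cycle (x) for 4 of the genes, with 1 point per animal in the order of replicates 1 to 4 and a bar at the median. Day 0 points are above all others in the first 3 panels, and in the fourth day 18 replicate 1, at 825 CPM, reaches them.

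Summed over the 93 genes, the estrus animals were alike and the day 18 animals were not. The genes held 1.16%, 1.06%, 0.956% and 1.02% of all counts in day 0 replicates 1 to 4. Day 5 had a mean share of 0.207% ± 0.0682 (SD, n = 4), day 10 of 0.127% ± 0.0406 and day 14 of 0.161% ± 0.00977. The day 18 animals had 0.664% in replicate 1, and 0.188%, 0.110% and 0.166% in replicates 2, 3 and 4. These sums are dominated by the genes with the most counts. A median over genes gives each the same weight: relative to the mean of day 0, the median log2 level was -2.54 to -2.12 on day 5, -3.59 to -2.36 on day 10 and -2.54 to -2.45 on day 14. On day 18 it was -1.09, -2.23, -3.01 and -2.48 in replicates 1 to 4. Over all tested IDs this median stayed between -0.17 and 0.27 in every library.

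**Figure D4:**
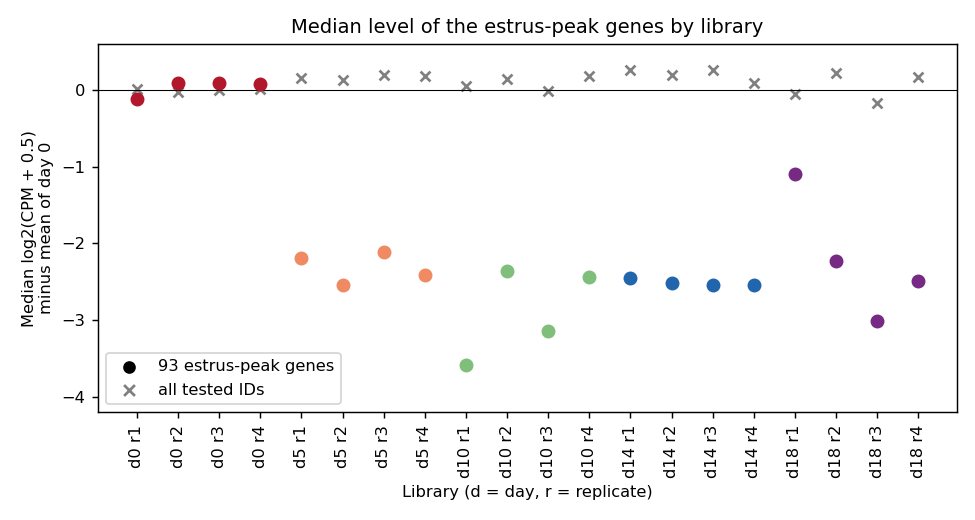
Median over the 93 genes of log2(CPM + 0.5) minus the mean of day 0 (y axis; filled circles, colored by day) in each library (x axis, d = day, r = replicate), with the same median over all tested IDs as grey crosses. Day 18 replicate 1, at -1.09, is the highest library outside day 0, and day 10 replicate 1, at -3.59, the lowest.

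Day 18 replicate 1 carried a large part of the set at or near estrus level. It was the highest of the 4 day 18 libraries in 64 of the 93 genes (68.8%), whereas it was the highest in 24.0% of all tested IDs and in 26.7% of those in the range of day 0 levels. In 59 genes it was at least 2-fold above the median of the other 3 day 18 libraries; 8.43% of IDs in the range were. It lay above the day 0 level divided by 3 in 55 genes, at or above the day 0 level in 20 and above all 4 estrus animals in 11. In the other 15 libraries outside day 0, the number of genes at or above the day 0 level was 0, 1 or 2. The rule's cap on the day medians limits how many libraries can come that high. Shares of tested IDs were not computed for these comparisons with the day 0 level. The most extreme gene in this animal had 303 CPM there. It had 19.9, 77.9, 81.2 and 25.3 CPM in the 4 estrus animals, and at most 13.5 CPM in any other library.

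The raised level in this animal did not extend to the whole set. In 38 genes day 18 replicate 1 was at or below the day 0 level divided by 3. In the 20 genes that reached the day 0 level, the other 3 day 18 animals had a median of 0.170 of that level, and in the 38 genes 0.168. The rule capped the day 18 median at the day 0 level divided by 3. Low values in those 3 animals were therefore set in part by the choice of genes. The same 2 groups of genes differed within estrus: relative to the other 3 day 0 animals, the median log2 level of day 0 replicate 1 was -0.68 in the 20 genes and 0.13 in the 38. Day 0 replicate 1 was the highest estrus animal in 1 of the 20 and in 15 of the 38. The day 0 level that sorts the genes contains day 0 replicate 1, so these values are tied in part by construction. In day 5 replicate 1, which was the highest day 5 animal in 41 of the 93 genes, 15 of the 20 and 7 of the 38 had their highest day 5 value. These sets were formed after the values were seen.

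Of the 3 libraries that stood apart in the whole data, 2 were often the lowest of their day in the set. On the first principal component of all tested IDs, day 10 replicates 1 and 3 and day 18 replicate 3 scored 90.2, 100.5 and 98.1, and the next library scored 28.7. Day 10 replicate 1 was the lowest day 10 library in 44 of the 93 genes, against 30.9% of tested IDs. Day 10 replicate 3 was the lowest in 22 genes (23.7%, against 33.8% of tested IDs) and the highest in 24 (25.8%, against 21.3%). Day 18 replicate 3 was the lowest day 18 library in 54 genes (58.1%), against 44.2% of tested IDs. Without these 3 libraries, 53 genes had all day 0 libraries above all others, where 52 did with them. With fewer libraries to exceed, this number could only stay or rise, and the matching share of tested IDs was not computed.

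The rule capped the levels of days 10, 14 and 18 alike at the day 0 level divided by 3, and tied days 10 and 14 loosely to day 5. It set no order among these 3 days, and the steps between them were tested, as differences between capped levels. Shares of all tested IDs, which had no cap, stand beside the counts as background. From day 14 to day 18, 0 of the 93 genes passed the edgeR test with adjusted p under 0.05, as did 0% of the tested IDs. The fitted log2 change was above 0 in 79 genes, with a median of 0.80, while the median over all tested IDs was 0.02. At an unadjusted p under 0.05, 29 genes rose by the edgeR test, against 6.95% of tested IDs. DESeq2 called 10 genes, all as rising, against 0.195% of tested IDs, and limma voom called 0 with a median of 0.26. With day 18 replicate 1 left out, the median fell to 0.15 and the number at an unadjusted p under 0.05 that rose fell to 7, where 3.59% of tested IDs rose. The fitted change was then lower in 74 of the 93 genes. The number with a rise of at least 1 log2 unit went from 41 to 13. For these counts the shares of tested IDs were not computed. The shift of the set between day 14 and day 18 thus rests mainly on 1 animal.

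In 4 of the 93 the fitted log2 rise was at least 3 both with and without day 18 replicate 1, though none of them passed the edgeR test. The matching share of tested IDs was not computed. ENSBTAG00000037768 was named for the largest fitted change of the set, so the size of its change is favored by that choice. ENSBTAG00000037768 went from 3 counts over the 4 day 14 libraries to 413 on day 18, a ratio of 140 after scaling by total counts (95% exact counting interval 47.6 to 682). Day 18 replicate 1 held 282 of these counts, and without it the ratio was 60.8 (20.4 to 299). The edgeR estimate, whose size is set in part by the prior count, was 7.06 log2 units (SE 1.61, edgeR adjusted p = 0.453), and 5.85 without day 18 replicate 1 (edgeR adjusted p = 0.937). ENSBTAG00000032193 went from 6 to 579 counts, a ratio of 98.2 (95% exact counting interval 44.8 to 269). That library held 478 of them, and without it the ratio was 23.5 (10.4 to 65.4). The edgeR estimate for ENSBTAG00000032193 was 6.66 log2 units (SE 1.45, edgeR adjusted p = 0.453), and 4.58 without that library (edgeR adjusted p = 0.937). DESeq2 gave an adjusted p of 0.00745 for ENSBTAG00000037768 and 0.000664 for ENSBTAG00000032193. Over 17 alternatives each, the adjusted p ran from these values to 1. Day 18 replicates 1, 2 and 3 were above all 4 day 14 libraries in both genes, and replicate 4 was not. For ENSBTAG00000011810 the log2 fold change was 1.51 (SE 0.71, edgeR adjusted p = 0.495) and 0.0094 without day 18 replicate 1, with an adjusted p of 0.259 to 1 over 18 alternatives. For ENSBTAG00000026812 the log2 fold change was 0.71 (SE 1.08, edgeR adjusted p = 0.818, and 0.566 to 1 over 18 alternatives). The counting intervals cover counting error only.

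**Figure D5:**
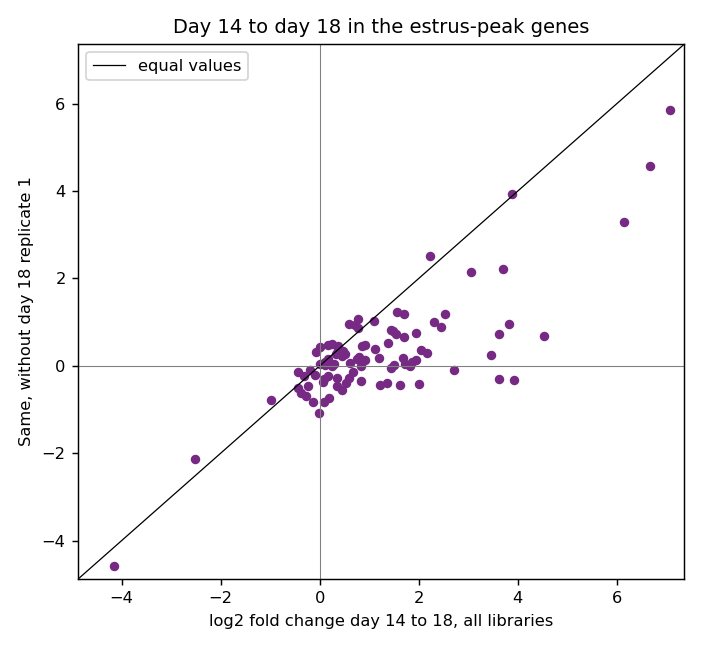
Fitted log2 fold change from day 14 to day 18 of the 93 genes with all libraries (x axis) and without day 18 replicate 1 (y axis); the line marks equal values. In 74 genes the value is lower without that library, and 4 keep a rise of at least 3 in both.

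Between day 10 and day 14 the set was nearly level. The median log2 change was 0.16, with 56 genes above 0 and 37 below, and the median of all tested IDs was -0.02. By the edgeR test 0 of the 93 passed, as did 0% of tested IDs. At an unadjusted p under 0.05, 1 gene rose (2.44% of tested IDs) among 6 that changed in either direction (8.24% of tested IDs). DESeq2 called 0 of the 93 genes as rising (0.0295% of tested IDs). The small shift rested on 1 animal: without day 10 replicate 1 the median was -0.04. From day 10 to day 18 the median was 0.80, 83 genes were above 0 and 0 passed the edgeR test (0% of tested IDs). At an unadjusted p under 0.05, 30 rose (3.98% of tested IDs), and DESeq2 called 8 as rising (0.201%). Without day 18 replicate 1 that median was 0.25, with 7 genes rising at an unadjusted p under 0.05 by the edgeR test (2.38% of tested IDs).

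Genes of the set varied more between animals of a day than other genes did. On day 0 the median coefficient of variation was 38.4%, against 15.6% for all tested IDs in the same range of day 0 levels. It was 44.4% against 17.4% on day 5, 69.7% against 24.5% on day 10, 36.1% against 16.6% on day 14 and 86.1% against 32.6% on day 18. The IDs in the range are not matched to the 93 genes in their counts on the later days. The 93 genes were chosen by gaps between medians of these same libraries, which can favor genes that vary between animals. How far the choice raised the spread was not tested, and the day 18 value includes replicate 1. The highest estrus animal was less than 2-fold above the lowest in 34 of the 93 genes, while 86.6% of the IDs in the range were that close. The steadiest gene at estrus had 164, 151, 161 and 176 CPM in the 4 day 0 animals and 18.7 to 72.7 CPM in the other 16.

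In 5 genes the high day 0 level was not particular to estrus animals. These had at least 1 library other than day 18 replicate 1 outside day 0 at or above the day 0 level, and they were singled out after their values were seen. The widest of them had 11, 4, 4710 and 640 counts on day 0. It also had 1119 counts in day 5 replicate 4, 1492 in day 10 replicate 2 and 1459 in day 14 replicate 2, and at most 168 in each of the others. Another had 9, 601, 189 and 67 counts on day 0, and 787, 210 and 664 counts in day 5 replicate 3, day 10 replicate 1 and day 14 replicate 2. A gene with 818 to 964 counts in all 4 estrus animals had 2115 in day 10 replicate 3 and 2012 in day 18 replicate 3, both among the libraries that stood apart, and at most 333 elsewhere. In the other 2 genes a single library of day 10 or day 14 reached the day 0 level. A median of 4 animals admits such genes, and the label of an estrus peak does not describe them. At the other end, 18 of the 93 genes had no library outside day 0 above the day 0 level divided by 3, and in 17 more only day 18 replicate 1 was above it. The rule had put the day medians under this same bound, so these counts are a description. The matching shares of tested IDs were not computed.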

How the data were processed

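The deposited values are raw counts per Ensembl gene ID, 1 file per library, per the file headers. Per the labels' protocols, library preparation used a TruSeq stranded kit after poly(A) selection. FastQC, STAR and edgeR appear in the submitters' processing notes, without versions. The build, annotation, counter and strand option were not given in the sources used here, so near-identical copies and antisense partners may share reads.

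CPM for the choice of genes and for values by library used total counts. Tests used R 4.3.3 and edgeR 4.0.16: filterByExpr kept 16947 IDs, all 93 genes among them, with TMM factors, dispersions over all 20 libraries and the robust quasi-likelihood F-test, two-sided, with Benjamini-Hochberg adjustment over all tested IDs. Alternatives were RLE factors, total counts, other low-count filters, DESeq2 1.42.0, limma 3.58.1 voom, replicate blocks, fits to the 8 libraries of a comparison alone, and libraries left out. Library pairs of a day differed by a chi-square of 27.3 to 563 per degree of freedom, so none was a repeat. Figures used matplotlib 3.10.9.

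The genes and lists were chosen with earlier results of these data known. Fixed gene lists, cell type markers and promoter motifs need gene names and were not used. The 4 IDs named were, in order and without repeats, the largest log2 change from day 14 to day 18, the largest ratio of day 0 to day 18, the largest ratio of day 0 to day 5 and the largest day 0 level.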

Additional observations from a re-analysis of the deposited data

Results flagged for a closer look

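In 30 groups of 4 libraries, the gap of a library to the nearest other was taken as a share of the group's range. A library was marked where this share was larger than Dixon's 95% critical value. With normally distributed values chance marks about 1 in 20 groups. That rate does not hold where 3 libraries have 0 counts, since any count in the remaining library is then marked. The groups also share animals and genes. On day 18, replicate 1 was marked high for the summed CPM of the 93 genes (6642, against 1105 to 1878 in the others), for ENSBTAG00000032193 (19.7 CPM, against 0.0451 to 3.06) and for ENSBTAG00000011810 (825 CPM, against 31.8 to 167). These 3 marks share the same animal and are not independent. Day 5 replicate 1 was marked high for ENSBTAG00000037768, at 4.94 CPM against 0.219 to 0.472. The same ID was marked in day 10 replicate 3 (0.0934 CPM, or 2 counts) and in day 14 replicate 2 (0.122 CPM, or 3 counts), where the other 3 libraries of the day had 0 counts. The median log2 level of the 93 genes relative to day 0 was marked low in day 0 replicate 1, at -0.11 against 0.08 to 0.09 in the other estrus animals.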

How the results depend on the processing

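The set had 87 to 114 genes with each library left out in turn, 219 with a ratio of 2 and 48 with a ratio of 4 in place of 3. The mean of a day in place of the median gave 77 genes, 52 of them among the 93, and TMM or RLE scaling gave 125 and 126, with all 93 among them. From day 14 to day 18 the median log2 change was 0.15 to 0.97 with each library left out, and 0.16 without the 3 libraries that stood apart and day 18 replicate 1; without those 3 alone the medians were 0.82 (day 14 to 18), -0.06 (day 10 to 14) and 0.87 (day 10 to 18). The median of day 14 to 18 stayed above 0 under all 18 alternatives. From day 10 to day 18 it was 0.25 to 1.07 and from day 10 to day 14 -0.04 to 0.27 with each library left out. DESeq2 called 10 genes from day 14 to day 18 and 8 from day 10 to day 18; every other alternative called 0 of the 93, as did all of them from day 10 to day 14. Scaling by total counts alone put the median of all tested IDs at -0.11 from day 14 to day 18 and that of the 93 genes at 0.65, with 70 of them above 0. Day 18 replicate 1 was the highest day 18 library in 67 genes with TMM or RLE scaling.

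Under the replicate block the medians were 0.76 (day 14 to 18), 0.18 (day 10 to 14) and 0.73 (day 10 to 18), with 0 genes called. Same-numbered libraries had deviations correlated at -0.41 to 0.79 (median 0.06), and 10 of 20 libraries matched their own number best. No chance level was computed for these values, so they do not settle whether the numbers mark a shared factor. In the main fit the numbers were not treated as pairs, since the labels give no block and animals were drawn at random. With only the 8 libraries of 2 days in the fit, the low-count filter kept 84 of the 93 genes for day 14 to 18, and ENSBTAG00000037768 and ENSBTAG00000032193 were removed. Genes with 0 to 5 counts per library on days 10 and 14 have fold changes limited by depth.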

Other observations

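Deviations of each library from the others of its day were compared across the 93 genes for 160 pairs of libraries from different days, as a description. The closest pair was day 10 replicate 3 and day 18 replicate 3, at r = 0.82, and it was r = 0.80 over the 11769 tested IDs in the range of day 0 levels. Day 0 replicate 3 and day 5 replicate 4 had r = 0.47 over the 93 genes and 0.02 over those IDs. This pair was picked from the 160 after the values were seen. The 93 include a gene with 4710 counts in day 0 replicate 3 and 1119 in day 5 replicate 4, and r was not computed without it. Day 18 replicate 1 deviated with day 0 replicate 2 (r = 0.33, and 0.42 over those IDs) and against day 0 replicate 4 (r = -0.45 and -0.34). Genes are not independent replicates, and libraries of a day share the reference they are measured against. The median biological coefficient of variation fitted by edgeR was 0.632 for the 93 genes and 0.328 for all tested IDs. The 93 genes were chosen from these same libraries, so this difference is a description.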
